A study of Mus musculus with 20 samples.

Results

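The 10 genes described here encode the replicative helicase and the proteins that load it onto replication origins: Mcm2, Mcm3, Mcm4, Mcm5, Mcm6, Mcm7, Mcm10, Cdc6, Cdt1 and Gmnn. Their probes were taken by gene symbol or synonym among the gene probes of an Agilent mouse array, leaving out 1 synonym of Gmnn that is the symbol of another gene. They number 13 of 41174 probes, for 10 of 27670 gene names, and Mcm3, Mcm4 and Cdc6 have 2 probes each. No expression value was used in the choice, but earlier results from these arrays were known when the genes were picked.

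The tissue was the XY gonad of mouse embryos at day 11.5 (17 to 21 tail somites), dissected free of mesonephros, with 1 pair of gonads from a single embryo per array. The 4 groups, of 5 arrays each, were the hybrids (B6x129S1)F1 and (129S1xB6)F1 from the 2 directions of a cross between the strains, C57BL/6J, and 129S1/SvImJ. The labels name no treatment and no engineered allele for any group, and do not state which parent of an F1 was the mother. Gonad RNA was labelled with Cy5 on every array and hybridised against 1 shared Cy3 reference, a pool of XY and XX gonads and whole embryos from a cross of Sox9-ECFP(C57BL/6J) with CD-1, so each value below is the log2 ratio of gonad over that pool. Dyes were not swapped, and the ratios of different genes were not compared with each other.

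MCM2 to MCM7 form a ring of 6 different subunits that unwinds DNA ahead of the replication fork. In G1 the origin recognition complex, CDC6 and CDT1 load the ring onto DNA, a step called licensing, and geminin, the product of Gmnn, binds CDT1 to prevent a further round of loading after S phase has begun. MCM10 joins later, when the loaded helicase is activated, and many of these genes are classical E2F targets that are expressed in dividing cells. The gonad at this stage is growing and its somatic cells are proliferating.

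Probe and promoter sequences of the genes with the largest strain differences are shown first. They were not compared between the strains. Mcm3 had strain differences of -0.59 and 0.12 on the log2 scale, C57BL/6J minus 129S1/SvImJ, from a pair of 60-base probes. Their first 30 bases, 5′ to 3′ as designed, were:

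Mcm3 A_51_P324934: aagctttctttgcgattagactagtatgta

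Mcm3 A_52_P364776: aggaggaagactcatgccaaggatggagag

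Mcm6 and Mcm5 had 1 probe each, which began as follows:

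Mcm6 A_51_P360492: ctgtggaaattgctttcttctgttcccagc

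Mcm5 A_51_P190111: tggaaatgtactttggtctgttggctcata

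Promoter windows (250 bases before to 50 bases after the annotated start, RefSeq, GRCm38.p6) were matched by symbol for 8 of the 10 genes, all but Mcm4 and Gmnn, and were searched on both strands for the E2F-type words TTTCCCGC, TTTCGCGC, TTTGCCGC and TTTGGCGC. At least 1 of these words stood in a window of 6 of the 8 genes, against 2.60% of all 27025 genes with a window. Mcm2 and Mcm10 held none, but the Mcm10 window ends in TTTGGCG, so its edge may cut a word. The Cdc6 window begins at base 98907901 of chromosome 11, inside the gene, whose first annotated base is 98907709. The windows of the 3 genes with the largest strain differences are printed in the direction of the gene, with the words, or their reverse complements, in capitals.

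Mcm6, chr1:128359656-128359955, minus strand: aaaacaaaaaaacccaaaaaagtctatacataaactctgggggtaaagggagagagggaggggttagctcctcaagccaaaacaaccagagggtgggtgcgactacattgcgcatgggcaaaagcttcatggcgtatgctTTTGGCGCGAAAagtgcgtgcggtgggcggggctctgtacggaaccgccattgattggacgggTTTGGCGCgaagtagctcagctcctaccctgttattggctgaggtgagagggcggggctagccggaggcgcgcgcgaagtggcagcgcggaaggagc

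Mcm5, chr8:75109259-75109558, plus strand: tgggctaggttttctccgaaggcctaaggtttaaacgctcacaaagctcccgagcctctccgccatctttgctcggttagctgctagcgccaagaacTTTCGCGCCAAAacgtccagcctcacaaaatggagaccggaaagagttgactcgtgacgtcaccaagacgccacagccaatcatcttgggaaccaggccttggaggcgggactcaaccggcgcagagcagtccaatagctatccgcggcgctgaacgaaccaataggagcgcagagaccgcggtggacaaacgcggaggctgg

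Mcm3, chr1:20820263-20820562, minus strand: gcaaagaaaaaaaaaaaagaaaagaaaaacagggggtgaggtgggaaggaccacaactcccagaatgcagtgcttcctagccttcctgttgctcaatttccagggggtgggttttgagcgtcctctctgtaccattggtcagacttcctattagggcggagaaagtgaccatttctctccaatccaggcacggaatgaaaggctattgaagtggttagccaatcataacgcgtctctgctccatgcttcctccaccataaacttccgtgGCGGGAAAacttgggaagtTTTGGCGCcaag

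Mcm6 held 3 matches, starting at -110, -106 and -47 relative to the annotated start on which the window was set, of which the first pair overlap. Mcm5 held an overlapping pair, at -153 and -149. In Mcm3 both matches lay after the annotated start, at bases 20 and 39. A match is a description of the sequence only, and no factor was measured at these windows.

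Of the 13 probes, 12 were well above background in Cy5 on all 20 arrays and were tested. The exception was the second Mcm4 probe (A_52_P231545), which was not well above background in Cy5 on any array and has no level here. No probe of these genes was saturated. A probe was called at a Benjamini-Hochberg adjusted p below 0.05 in a limma model of the 4 groups over all 35040 probes tested. In bulk tissue, fewer cells of a type and less RNA per cell cannot be told apart.

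Across the series, the share of gene spots well above background was 78.4% to 88.3% per array, and the 5 lowest shares were those of array K2 of C57BL/6J and the 4 F1 arrays of slide 5. Slide 1 held strain arrays only and slide 5 F1 arrays only, while slides 2 to 4 held all 4 groups. Among marker lists, 10 gonadal somatic genes averaged 1.03 to 1.61 above the pool on the log2 scale over the 20 arrays, and 14 germ cell genes 1.06 to 1.95, whereas 10 mesonephros and duct genes averaged -0.10 to 0.81.

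The study compared C57BL/6J, a strain prone to XY sex reversal, with 129S1/SvImJ at the stage when the gonad takes its course. Mcm6 was 1.40-fold higher in C57BL/6J and 1 of the Mcm3 probes was 1.51-fold lower, while the other Mcm3 probe showed no such difference. These 2 of the 12 probes were called, against a background of 5.47% of all probes tested (1915 of 35040). Of the 12 probes, 5 had a difference above 0 and 7 below, with a median of -0.15, where the median over all probes was 0.0024. At an unadjusted p below 0.05, 5 of the 12 probes and 5303 of all probes passed.

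**Figure D1:**
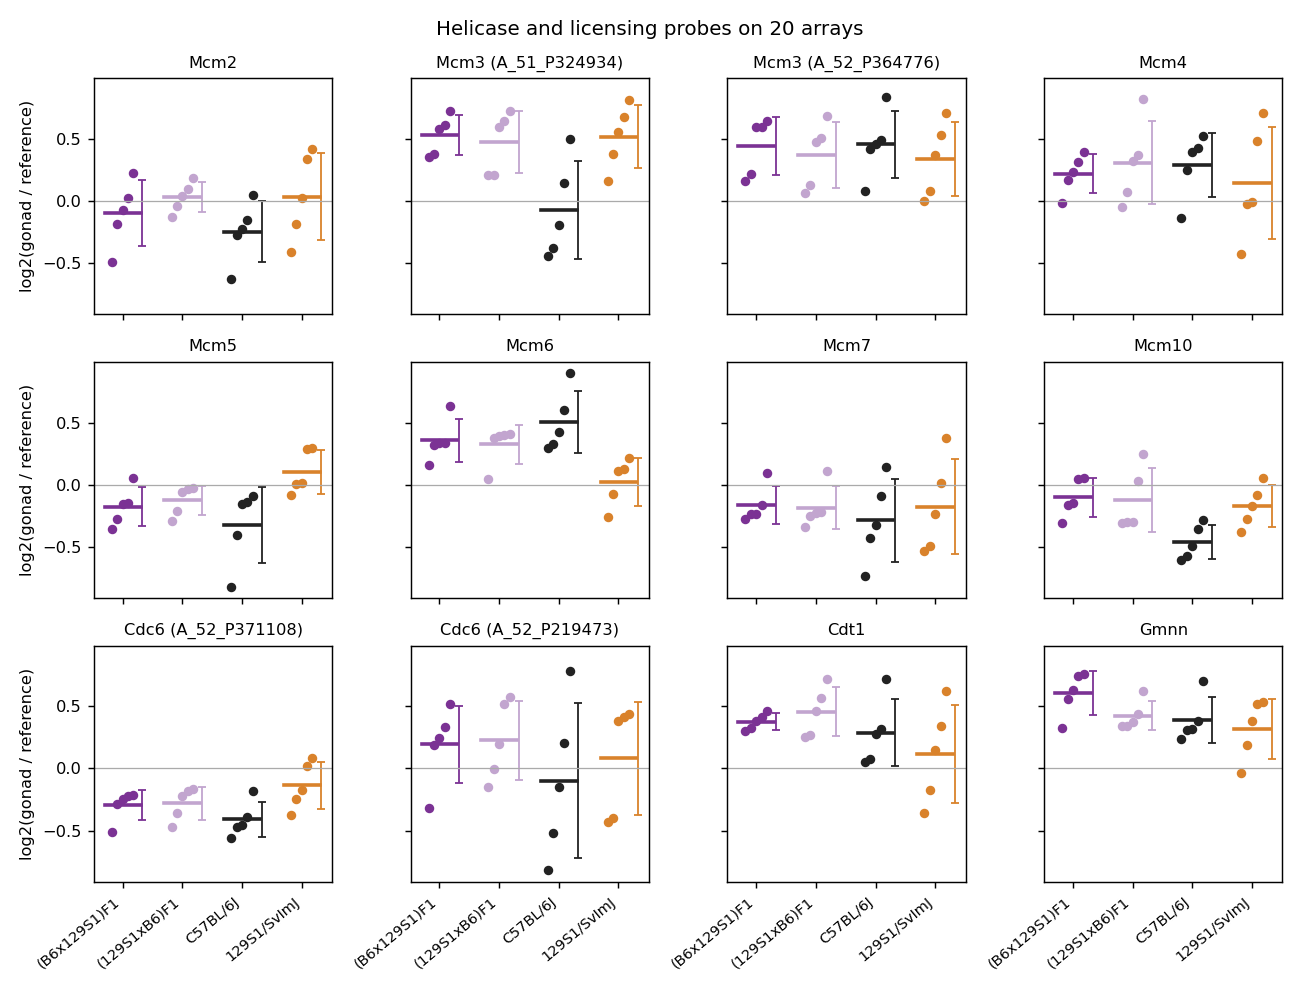
Log2 ratio of gonad over the reference pool (vertical axis) for the 12 tested probes, by group (horizontal axis); points are single arrays in order of value, horizontal lines are group means and the bars beside them 1 SD (n = 5 arrays per group). Mcm6 and Mcm5 are the panels in which the C57BL/6J and 129S1/SvImJ arrays do not overlap. The share of all probes without such overlap was not counted, so no background stands beside these panels.

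Mcm6 encodes a subunit of the helicase ring. Its log2 ratio was 0.30, 0.42, 0.32, 0.60 and 0.90 in C57BL/6J (arrays H1, H2, H3, H4 and K2), against -0.07, 0.11, 0.13, -0.26 and 0.22 in 129S1/SvImJ (arrays A3, A4, A6, D4 and G3). Every C57BL/6J array was above every 129S1/SvImJ array, with means of 0.51 ± 0.25 and 0.02 ± 0.19 (SD, n = 5 each). How often such separation occurs among all probes was not counted. The difference was 0.48 ± 0.13 (SE) on the log2 scale (adjusted p = 0.026, limma).

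Within slides the Mcm6 difference was 0.48, 0.31, 0.77 and 0.38 on slides 1 to 4, so that C57BL/6J was higher on each slide that held both strains. With slide as a block the adjusted p was 0.0047. With the letter of the sample name, a possible litter label, as a random block it was 0.052, and in a fit of the 10 strain arrays alone 0.10. Leaving out array H4 or K2 of C57BL/6J, or A3 or D4 of 129S1/SvImJ, ended the call (adjusted p = 0.057, 0.077, 0.062 and 0.083), and the difference over all single omissions was 0.39 to 0.54. Without the 4 F1 arrays of slide 5 the adjusted p was 0.060 (limma).

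In the hybrids Mcm6 was 0.16, 0.63, 0.32, 0.34 and 0.34 on the (B6x129S1)F1 arrays C2, C3, C4, E1 and F2. It was 0.047, 0.38, 0.40, 0.40 and 0.41 on the (129S1xB6)F1 arrays L1, L2, L4, M3 and M6. The F1 means, 0.36 ± 0.17 and 0.33 ± 0.16 (SD, n = 5 each), lay between those of C57BL/6J and 129S1/SvImJ, and the arrays overlapped with both strains. The F1 mean minus C57BL/6J was -0.17 ± 0.11 (SE; adjusted p = 0.63) and the F1 mean minus 129S1/SvImJ 0.32 ± 0.11 (SE; adjusted p = 0.21, limma), and neither passed the test.

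Mcm3, another ring subunit, was called with the probe A_51_P324934 but not with its other probe. With A_51_P324934, C57BL/6J arrays H1, H2, H3, H4 and K2 read -0.44, -0.19, -0.38, 0.15 and 0.50, against 0.17, 0.82, 0.68, 0.38 and 0.56 on the 129S1/SvImJ arrays A3, A4, A6, D4 and G3. The strains overlapped through K2 alone, and the other C57BL/6J arrays lay below all 5 of 129S1/SvImJ. Those other arrays share the letter H, a possible litter label, and K2 is the only C57BL/6J array with another letter. Means were -0.07 ± 0.40 and 0.52 ± 0.25 (SD, n = 5 each), a difference of -0.59 ± 0.17 (SE; adjusted p = 0.046, limma).

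The other probe, A_52_P364776, read 0.46, 0.84, 0.49, 0.08 and 0.42 on the same C57BL/6J arrays, against 0.0052, 0.53, 0.37, 0.08 and 0.71 in 129S1/SvImJ. Its strains overlapped throughout, and its difference was 0.12 ± 0.16 (SE; adjusted p = 0.85, limma). Within each array, A_51_P324934 minus A_52_P364776 averaged -0.53 ± 0.56 in C57BL/6J and 0.18 ± 0.20 in 129S1/SvImJ (SD, n = 5 each), a difference of -0.71 with a two-sided exact permutation p = 0.056. This test was added after the values were seen, and its smallest possible p is 0.0079. Over the 20 arrays the Pearson r between the probes was -0.13, given as a description.

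**Figure D2:**
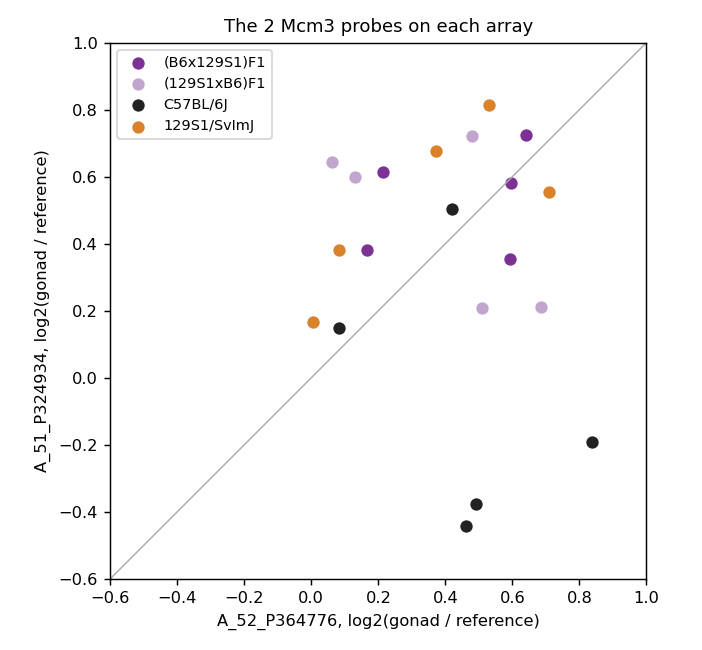
Log2 ratio of gonad over reference for the Mcm3 probes A_52_P364776 (horizontal axis) and A_51_P324934 (vertical axis) on each of the 20 arrays, coloured by group, with the line of equal values. In C57BL/6J, 3 arrays lie far below the line, with A_51_P324934 at -0.44, -0.19 and -0.38 and A_52_P364776 at 0.46, 0.84 and 0.49.

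The Mcm3 call was close to the threshold. Within slides 1 to 4 the strain difference of A_51_P324934 was -0.68, -1.01, -0.17 and -0.41, and with slide as a block the adjusted p was 0.0071. It was 0.19 with the letter as a random block, 0.16 in the fit of the strain arrays alone and 0.075 without the F1 arrays of slide 5. With another background correction and normalization (normexp and loess) it was 0.069, and without background subtraction 0.057. It was 0.056 with the deposited ratios, 0.053 with median centring and 0.059 without a filter (limma). The call was lost in 14 of 20 omissions of 1 array, with differences of -0.73 to -0.50, and held only without L1, L2, M6, H4, K2 or A3. The largest difference, -0.73 (adjusted p = 0.0064, limma), was reached without K2.

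Mcm5, also a ring subunit, did not pass the test. It read -0.15, -0.40, -0.14, -0.09 and -0.82 on the C57BL/6J arrays H1, H2, H3, H4 and K2, against 0.0050, 0.30, 0.012, 0.29 and -0.08 on the 129S1/SvImJ arrays A3, A4, A6, D4 and G3. The strains did not overlap, but how often this occurs among all probes was not counted. The difference was -0.43 ± 0.13 (SE; adjusted p = 0.061, limma). It was called with slide as a block (adjusted p = 0.030), without H4 (0.041) and without G3 (0.049), and was -0.30 without K2 (adjusted p = 0.16). Within slides 1 to 4 it was -0.30, -0.70, -0.84 and -0.012.

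The other ring subunits had strain differences of -0.28 ± 0.16 for Mcm2 (adjusted p = 0.45), 0.14 ± 0.19 for Mcm4 (0.84) and -0.11 ± 0.17 for Mcm7 (SE; 0.87, limma). Mcm2 ran from -0.63 to 0.05 in C57BL/6J and from -0.41 to 0.42 in 129S1/SvImJ. Mcm4 ran from -0.14 to 0.53 in C57BL/6J and from -0.43 to 0.71 in 129S1/SvImJ, and Mcm7 from -0.74 to 0.14 in C57BL/6J and from -0.53 to 0.38 in 129S1/SvImJ. The arrays of the strains overlapped for each of these probes, and differences of both signs occurred among the subunits of the ring.

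Mcm10, the factor of helicase activation, was -0.46 ± 0.14 in C57BL/6J (range -0.60 to -0.29) and -0.17 ± 0.17 in 129S1/SvImJ (range -0.38 to 0.06; SD, n = 5 each). The difference of -0.29 ± 0.12 (SE) did not pass the test (adjusted p = 0.23, limma). On slide 4 alone it was 0.10, against -0.24, -0.66 and -0.41 on slides 1 to 3.

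Cdc6, an ATPase of helicase loading, had differences of -0.27 ± 0.10 (A_52_P371108, adjusted p = 0.16) and -0.18 ± 0.26 (A_52_P219473, adjusted p = 0.86; SE, limma) between C57BL/6J and 129S1/SvImJ. The second of these was the most variable of the 12 probes, running from -0.81 to 0.79 in C57BL/6J and from -0.43 to 0.44 in 129S1/SvImJ. Cdt1, the partner of CDC6 in loading, differed by 0.17 ± 0.16 (adjusted p = 0.73). Gmnn, the inhibitor of CDT1, differed by 0.07 ± 0.12 (SE; adjusted p = 0.89, limma), with 0.24 to 0.70 in C57BL/6J and -0.03 to 0.54 in 129S1/SvImJ. None of the loading factors or the inhibitor passed the strain test.

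In the same comparison, marker genes of other cell types were called as follows: 0 of 14 for germ cells, 0 of 10 for supporting cells, 1 of 10 for gonadal somatic cells (Emx2, higher), 0 of 10 for endothelium, 0 of 9 for erythroid cells, 0 of 10 for macrophages and 2 of 10 for mesonephros and duct (Emx1 higher, Lhx1 lower). Over all probes tested, 5.47% were called. The mean over the mesonephros and duct list was 0.15 to 0.58 in C57BL/6J and -0.10 to 0.46 in 129S1/SvImJ. The gonadal somatic list averaged 1.34 to 1.61 in C57BL/6J and 1.03 to 1.40 in 129S1/SvImJ. The endothelial list averaged 0.08 to 0.51 in C57BL/6J and 0.30 to 0.74 in 129S1/SvImJ, with 9 of 10 differences below 0 and a median of -0.20. The median difference was -0.12 for germ cell, -0.17 for supporting cell, 0.21 for erythroid and 0.23 for macrophage markers. Their part in the differences of the helicase genes was not tested.

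The hybrids were compared with each strain, with the mid-parent (the mean of the strains) and with each other. A_51_P324934 of Mcm3 was 1.49-fold higher in the F1 mean than in C57BL/6J, and was the only 1 of the 12 probes called in that comparison, against 1.91% of all probes (668). None of the 12 was called for the F1 mean against 129S1/SvImJ (1.54% of all probes, 540), against the mid-parent (0.24%, 84) or in the F test over the 4 groups (3.56%, 1249). At an unadjusted p below 0.05, 2, 3, 2 and 4 of the 12 probes passed in these 4 comparisons, and 4073, 4332, 3057 and 4568 of all probes. The comparisons share arrays, so they do not add up as separate evidence.

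This Mcm3 probe read 0.38, 0.62, 0.72, 0.58 and 0.35 on the (B6x129S1)F1 arrays C2, C3, C4, E1 and F2, and 0.21, 0.21, 0.64, 0.60 and 0.72 on the (129S1xB6)F1 arrays L1, L2, L4, M3 and M6. Each of them was above the C57BL/6J arrays H1, H2, H3 and H4, while K2 lay inside the F1 range. The F1 mean minus C57BL/6J was 0.58 ± 0.15 (SE; adjusted p = 0.048, limma). Within slides 2, 3 and 4 it was 0.69, -0.09 and 0.15, and with slide as a block 0.28 ± 0.13 (adjusted p = 0.36).

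That call was lost in 14 of 20 omissions of 1 array, with differences of 0.48 to 0.72, and held only without L1, L2, H4, K2, A3 or A4. Without the F1 arrays of slide 5 it was 0.47 (adjusted p = 0.30, limma). The other Mcm3 probe gave -0.05 ± 0.14 (SE; adjusted p = 0.94, limma). Against 129S1/SvImJ the F1 mean of A_51_P324934 differed by -0.02 ± 0.15 (adjusted p = 0.98).

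In the same comparison of the F1 mean with C57BL/6J, 2 of 14 germ cell markers were higher (Sox2 and Tfap2c) and the mean over that list was 1.47 to 1.95 in (B6x129S1)F1 and 1.72 to 1.94 in (129S1xB6)F1, against 1.06 to 1.52 in C57BL/6J. Of 10 mesonephros and duct markers 1 was higher (Lhx1), where 1.91% of all probes tested were called. The other marker lists had 0 called. Of these, 8 of 10 supporting cell markers had a difference above 0 (median 0.54), and their mean was 1.17 to 1.81 in (B6x129S1)F1 and 0.59 to 1.54 in (129S1xB6)F1, against 0.53 to 1.27 in C57BL/6J. The medians of the gonadal somatic, endothelial, erythroid, macrophage and mesonephros and duct lists lay between -0.13 and 0.09. The part of these markers in the Mcm3 value was not tested.

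**Figure D3:**
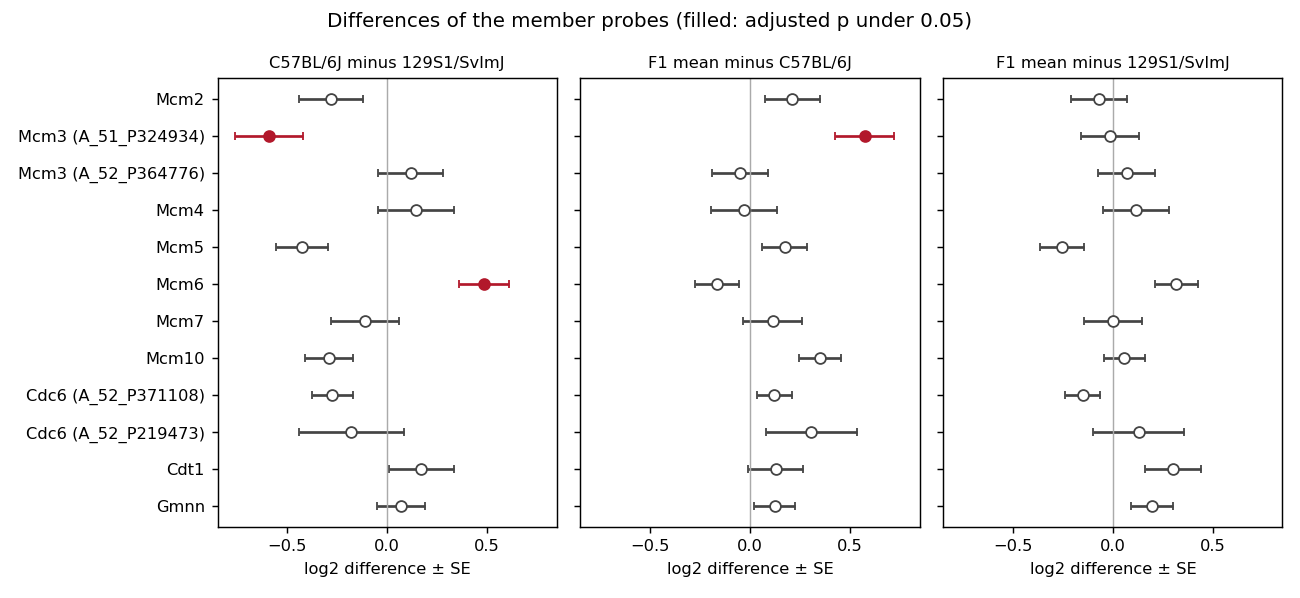
Log2 difference ± SE (horizontal axis) of the 12 tested probes (vertical axis) for C57BL/6J minus 129S1/SvImJ, F1 mean minus C57BL/6J and F1 mean minus 129S1/SvImJ; filled red points have an adjusted p below 0.05. Mcm6 and the Mcm3 probe A_51_P324934 are filled in the strain panel, and that Mcm3 probe also in the panel of F1 minus C57BL/6J.

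None of the other F1 differences passed. Against C57BL/6J, Mcm10 had the next largest with 0.35 in the F1 mean (adjusted p = 0.11), with hybrid arrays from -0.31 to 0.25 and C57BL/6J arrays from -0.60 to -0.29. Cdt1 was 0.38 ± 0.07 in (B6x129S1)F1 and 0.46 ± 0.20 in (129S1xB6)F1, against 0.12 ± 0.40 in 129S1/SvImJ (SD, n = 5 each), which gave 0.30 ± 0.14 (SE; adjusted p = 0.39, limma). Gmnn was 0.60 ± 0.18 in (B6x129S1)F1 and 0.42 ± 0.12 in (129S1xB6)F1, against 0.39 ± 0.18 in C57BL/6J and 0.32 ± 0.24 in 129S1/SvImJ (SD, n = 5 each). Its F1 mean minus mid-parent was 0.16 ± 0.09 (SE; adjusted p = 0.62, limma).

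Between the reciprocal hybrids, (B6x129S1)F1 minus (129S1xB6)F1, 0 of the 12 probes were called by limma and 0 passed an unadjusted p below 0.05, against 0.00571% (2 probes) and 1170 probes of the array. The differences ran from -0.13 for Mcm2 to 0.18 ± 0.12 (SE) for Gmnn, each with an adjusted p of 1, and the median was 0.0029. The arrays of the reciprocal hybrids overlapped for each of the 12 probes.

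Genes beside Mcm6, on chromosome 1, were read in the strain comparison, using the brightest tested probe of 3 tested genes on either side. Lct, the intestinal lactase gene, was higher in C57BL/6J by 0.75 ± 0.09, and Thsd7b by 1.19 ± 0.26 (SE; adjusted p = 2.3e-05 and 0.0065, limma). R3hdm1 (0.24), Ubxn4 (-0.02), Dars (0.52) and Cxcr4 (0.37) did not pass, with adjusted p from 0.18 to 0.98. Thsd7b had other probes with differences of 0.36 and 0.44 that did not pass. For Lct the F1 mean was also 0.51 above 129S1/SvImJ (adjusted p = 0.0013, limma). 

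**Figure D4:**
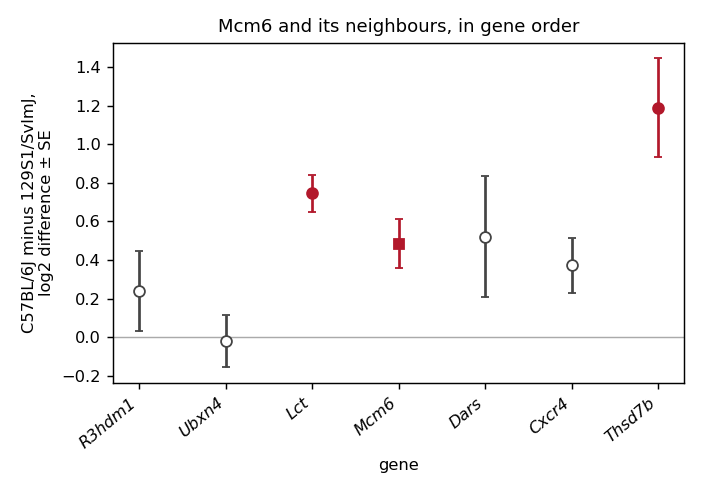
C57BL/6J minus 129S1/SvImJ log2 difference ± SE (vertical axis) for Mcm6, drawn as a square, and 3 tested genes on either side in gene order (horizontal axis, not to scale); filled red symbols have an adjusted p below 0.05. Lct, Mcm6 and Thsd7b are filled and positive.

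Other replication genes were read from 6 lists, with the brightest probe per gene. Among 9 further licensing factors, the subunits of the origin recognition complex included, 1 was called between the strains: Orc1, its largest subunit, was higher in C57BL/6J by 0.55 ± 0.16 (SE; adjusted p = 0.043, limma) and lower in the F1 mean than in C57BL/6J by a difference of -0.54 (adjusted p = 0.040). None of 13 tested genes that control CDT1, CDC6 or geminin was called with its brightest probe. Other probes of uncalled genes were not counted, and some lay far from the brightest. For Dtl they gave -0.385 and -1.68, against 0.07 from the brightest. For Mcmbp, a further licensing factor, they gave 0.33, -0.12 and 1.31, against 0.03. Medians of the strain difference were 0.017 and 0.021 in these lists.

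Among 15 genes of helicase activation, 1 was called: Gins1, a subunit of the GINS complex that joins the active helicase, was higher in C57BL/6J by 0.60 ± 0.10 (SE; adjusted p = 0.00077, limma), with 0.33 from its other probe. Among 27 enzymes of the fork, 1 was called: Prim2, the large subunit of primase, was higher in C57BL/6J by 3.93 ± 0.12 on the log2 scale (SE; adjusted p = 2.5e-14, limma), whereas its other probe gave -0.34. Pold3 was not called with its brightest probe (0.38), and its other probes gave -1.6 and 2.14. The lists had medians of -0.09 and -0.07.

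Of 22 E2F and RB regulators, 3 were called between the strains. Ccnd1 (cyclin D1, 0.41 ± 0.12) and Cdkn1b (the CDK inhibitor p27, 0.77 ± 0.12) were higher in C57BL/6J, and Rbl2 (the RB relative p130, -0.59 ± 0.17) was lower (SE; adjusted p = 0.046, 0.00032 and 0.049, limma). Other probes gave -0.13 and 0.04 for Cdkn1b and -0.15 for Rbl2. None of 19 genes of G2 and mitosis was called, and their median was 0.017. By the brightest probe of each gene, the count over the 6 lists was thus 5 higher and 1 lower of 105 tested genes, against 5.47% of all probes. Other probes of these genes do not enter this count.

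Across arrays the members showed correlations of both signs. Values were centred within groups, and the brightest probe of each gene was correlated over 20 arrays for all 45 pairs, with p from 100000 permutations of arrays within groups and Benjamini-Hochberg adjustment over the 45. Pearson r was above 0 in 26 pairs, with a median of 0.082 over all pairs and 0.16 over the 15 pairs of ring subunits, which ran from -0.86 to 0.77.

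By Pearson r, 3 pairs passed. Mcm6 and Mcm7 moved in opposite directions (r = -0.86, adjusted permutation p = 0.0027, and Spearman rho = -0.78, adjusted p = 0.013), with r = -0.79 without the 2 arrays farthest from the median of Mcm6. Mcm3 (A_51_P324934) varied with Mcm6 (r = 0.77, adjusted permutation p = 0.017, rho = 0.73, adjusted p = 0.029) and with Cdt1 (r = 0.73, adjusted permutation p = 0.017, rho = 0.80, adjusted p = 0.013), with r = 0.64 and 0.85 without 2 arrays, where the pair of Mcm3 and Mcm6 no longer passed (adjusted permutation p = 0.075). The other Mcm3 probe, A_52_P364776, had r = -0.13 with A_51_P324934 over the 20 arrays and was not correlated with other genes. By Spearman rho, 4 pairs passed, the fourth being Mcm6 and Cdt1 (rho = 0.77, adjusted permutation p = 0.013).

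With values centred on slide as well as group, r for the 3 pairs that passed by Pearson was -0.58, 0.55 and 0.41. Of the 45 pairs, 0 passed in that setting (lowest adjusted permutation p = 0.23). The arrays share slides and scans, and the part of these in the correlations was not tested beyond that fit.

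**Figure D5:**
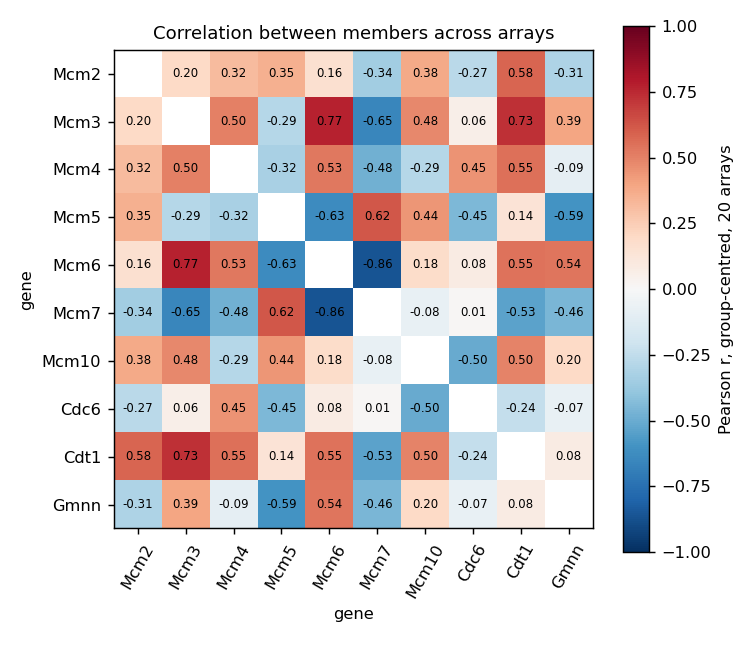
Pearson r between the brightest probes of the 10 genes (both axes) over 20 arrays after centring within groups, from blue (-1) to red (1). The darkest cells are Mcm6 with Mcm7 at -0.86, Mcm3 with Mcm6 at 0.77 and Mcm3 with Cdt1 at 0.73. Mcm3 is drawn with A_51_P324934 only.

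The genes most like the mean of Mcm2 to Mcm7 in the same centred values, of 18054 genes compared over 20 arrays, were Arhgef12 (r = 0.917), Rpn2 (0.914), Fasn (0.907), Ankrd27 (0.904) and Zfp236 (0.896). Over all genes r had a median of -0.11, with 5% of genes below -0.64 and 5% above 0.59. These are the extremes of many correlations and carry no test. The values were not centred on slide. The mean also joins subunits that did not vary together, such as Mcm6 and Mcm7 (r = -0.86).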

How the data were processed

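Spot intensity of both channels was deposited by the authors as output of Agilent Feature Extraction 9.1.3.1, per the file headers, with processed intensity columns after background subtraction and dye normalization. The authors also deposited a table of log2 ratios, used as an alternative. Its values correlated with the ratios of processed signals at r = 0.991 to 0.999 per array over well-measured spots.

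The log2 ratio of processed Cy5 over Cy3 was taken per spot, without flagged outliers, and averaged over spots of a probe. Tested probes were those flagged well above background in Cy5 on 4 or 5 arrays of some group. A model of the 4 groups was fitted to 20 arrays (limma 3.58.1, R 4.3.3; 16 residual and 3.3 prior degrees of freedom) and was first tested on simulated data. Correlations used Python 3.11.15 with SciPy 1.17.1. Each array is a separate gonad pair, and the labels report several litters per group without saying which array came from which litter.

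Alternatives were other background corrections and normalizations, centring, filters, slide and sample letter as blocks, the strains' arrays alone, 1 probe per gene, and omission of each array or of the slide 5 arrays (added after their dimmer signal was seen). Members, lists and tests were chosen with earlier results of these data known. Named genes are all members, called list genes, neighbours of called members and the 5 genes most like the mean of the ring subunits. The neighbours of Mcm3 are not reported here. The number of arrays limits the precision. Sequences came from the array files and RefSeq tables.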

Additional observations from a re-analysis of the deposited data

Results flagged for a closer look

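Of 48 sets of 5 arrays (12 probes in 4 groups), 3 held a sample far from the others by Dixon's ratio at the 95% level, and chance flags about 1 in 20. Array L1 of (129S1xB6)F1 was low for Mcm6 (0.047, where the other arrays read 0.38 to 0.41). The same array was high for Mcm7 (0.11, where the other arrays read -0.34 to -0.22). Array E1 of (B6x129S1)F1 was low for Cdc6 probe A_52_P371108 (-0.51, where the other arrays read -0.28 to -0.22).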

How the results depend on the processing

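Within slide 3, F1 minus C57BL/6J of the Mcm3 probe A_51_P324934 was -0.09, opposite in sign to its call. Otherwise the 3 called differences and that of Mcm5 kept their sign under the alternatives run, within-slide values of the strain comparison included. Uncalled ones did not all: between the strains, Gmnn was -0.0069 without K2 and -0.017 without D4, and Mcm7 0.03 without D4, and for F1 minus C57BL/6J the Mcm3 probe A_52_P364776 was 0.04 without H2. With slide as a block, F1 minus C57BL/6J was -0.01 for Mcm2, -0.14 for Cdt1 and -0.19 for Cdc6 probe A_52_P219473, against 0.21, 0.13 and 0.31 without it. The strain comparison called 1224 probes with the letter as a block (block correlation 0.157). The reciprocal hybrids had 0 called with normexp and loess, 1 with the stricter filter, 0 without the slide 5 arrays and 2 to 5 leaving out 1 array. F1 minus C57BL/6J had 445 with slide as a block, 355 with the letter and 365 without the slide 5 arrays. F1 minus 129S1/SvImJ had 305, 341 and 290 under these, and 348 to 631 leaving out 1 array (lowest without A3). F1 minus mid-parent had 31, 38 and 19, 21 without background subtraction, and 51 to 117 leaving out 1 array. The F test had 722 with the letter. Without background subtraction, the share of calls that were higher was 41.2% for F1 minus C57BL/6J and 48.2% for F1 minus 129S1/SvImJ, where the reported shares were 53.1% and 61.3%. Of the 12 probes, the strain comparison called 1 (Mcm6) with normexp and loess, without background subtraction and with the deposited ratios. It also called 1 (Mcm6) with median centring and without a filter. It called 0 with the letter, with the strain arrays alone and without the slide 5 arrays, and 0 to 2 leaving out 1 array (0 without D4). F1 minus C57BL/6J called 0 in those settings and with slide as a block, and 0 to 1 leaving out 1 array. The F test called 1 with slide as a block, and 0 to 1 leaving out 1 array (1 without K2). Of the 45 pairs, 0 passed with slide centring and 2 without the 2 farthest arrays, where 39 of 45 kept the sign of r. The causes were not tested. The groups share no replicate numbers, and slide was the only match between arrays that was used. Probes near background are limited by signal. 12 of the 13 probes here were not.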
